A study of Mus musculus with 8 samples.

Results

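Choroid plexus epithelial genes were examined in RNA labelled hippocampus. They are Ttr, Otx2, Cldn2, Wfdc2, Sostdc1, Folr1, Kl, Clic6 and Aqp1, 9 genes taken by name as markers of this epithelium. Probe sets that list 1 of these symbols and no other were used. They numbered 13, of 20380 such probe sets, and covered 8 genes of 12393. Clic6 was not analysed here. The right-hemisphere hippocampus of 8 mice was profiled, each on an array of its own, to compare mutant with normal animals. By the labels all mice carried the mps allele of Gusb, the gene of the lysosomal enzyme beta-glucuronidase, on the background B6.C-H2-Kbm1/ByBir. The 4 mutants were labelled mps/mps, a model of mucopolysaccharidosis VII, and the 4 normals mps/+, so by their labels the normals are carriers. The allele is inherited and not restricted to a cell type. Normals 1 to 4 were a female of 38.3 weeks, a male of 25.6 weeks, a male of 19.6 weeks and a female of 14.6 weeks. Mutants 1 to 4 were a female of 38.3 weeks, males of 25.6 weeks (mutants 2 and 3) and a female of 19.6 weeks. The numbers name the arrays in accession order.

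The choroid plexus is a folded sheet of epithelium over a leaky capillary core that hangs into the brain's ventricles and secretes cerebrospinal fluid. Its cells are sealed by tight junctions and carry ions, water, folate and hormones between blood and fluid. In the lateral ventricle it is attached along the fimbria, next to the hippocampus. In RNA of a whole dissection, more cells of a type and more RNA per cell cannot be told apart.

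Values are log2 expression, so a difference of 1 is a 2-fold difference. The array scale of a probe set depends on its probes, and levels are therefore not compared between genes. Bacterial transcripts absent from mouse RNA give the floor: the highest of 27 such probe sets lay between 3.31 and 3.72 on the 8 arrays. On 1 of its 2 probe sets Gusb lay between 5.40 and 6.56 in normals and between 4.36 and 4.71 in mutants. On the other it lay between 5.12 and 6.40 and between 5.55 and 6.59. RNA of normal 1 differed in quality, with control probe sets at the 3 prime end exceeding those at the 5 prime end by 3.58, against 0.22 to 0.75 elsewhere. Signals of regional genes were not uniform. Prox1, a transcription factor gene of dentate granule cells, did not exceed the floor in normals 2, 3 and 4 or in mutant 1. It was at 4.04, 5.08, 3.82 and 4.83 in normal 1 and mutants 2, 3 and 4. The mean of the 7 dentate genes listed here, Prox1 included, had another order. That mean was 5.80 in mutant 1 and 5.41 and 5.27 in mutants 2 and 4, so Prox1 alone does not give the dentate content.

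The choroid plexus genes were high in mutants 1 and 3 and near normal levels in mutants 2 and 4. Averaged over the 8 genes at their measured values, mutant 1 lay 3.06 log2 units above the normal mean (8.36-fold) and mutant 3 lay 2.16 above it (4.46-fold). Mutants 2 and 4 lay 0.37 and 0.44 above it. The normals themselves were at 0.35, 0.46, -0.33 and -0.48, so mutants 2 and 4 were inside the normal range of this mean. Mutants 1 and 3 exceeded all 4 normals for 8 of 8 genes, and mutants 2 and 4 did so for 3 each. Mutants 1 and 3 were the 2 highest of the 8 arrays for 7 of the 8 genes, against 2.71% of all genes. That these 2 arrays stand apart was known from these same genes, so the count describes the pattern and does not test it.

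**Figure D1:**
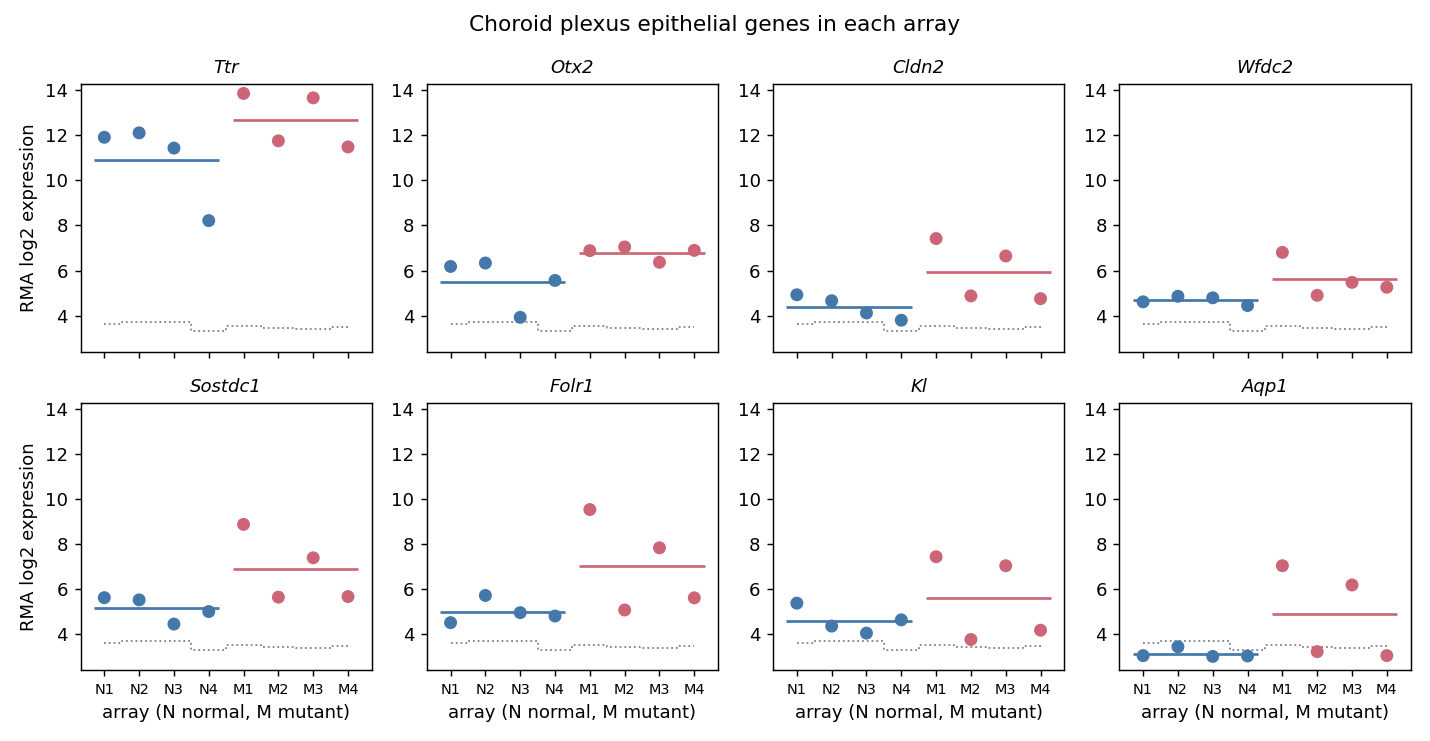
RMA log2 expression of the 8 genes (y axis) in each array (x axis), with N1 to N4 normal in blue, M1 to M4 mutant in red, horizontal lines at group means and the dotted line at the highest absent bacterial control of each array. M1 and M3 stand above the other 6 arrays for each gene except Otx2.

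Among carriers and transporters, Ttr encodes transthyretin, the thyroxine and retinol-binding protein carrier that this epithelium secretes. It was at 11.92, 12.11, 11.44 and 8.22 in normals 1 to 4 and at 13.86, 11.76, 13.67 and 11.49 in mutants 1 to 4. Mutants 1 and 3 were above every normal, and mutants 2 and 4 were among the normals. Normal 4, the youngest animal, stood far below the rest, so the normals alone spanned 14.9-fold. In mutants 1 and 3 this probe set was at the upper end of the array's scale, whose highest values were 13.86 and 13.67, which limits the differences read from it.

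Folr1, the folate receptor gene, was at 4.52, 5.73, 4.97 and 4.82 in normals and at 9.55, 5.09, 7.85 and 5.62 in mutants. The mutant 1 value was 23.2-fold and the mutant 3 value 7.15-fold above the normal mean, while mutants 2 and 4 lay inside the normal range. Aqp1 encodes the water channel of the surface that faces the fluid. It was at 3.06, 3.45, 3.02 and 3.04 in normals and at 7.05, 3.24, 6.20 and 3.06 in mutants. It thus exceeded the floor in mutants 1 and 3 and in none of the other 6 arrays. Measured against the floor of the normals, Aqp1 was at least 11.02-fold higher in mutant 1 and at least 6.09-fold higher in mutant 3. Over all 4 mutants the bound was at least 2.46-fold (limma adjusted p = 0.805). Such a bound sets the brighter mean against the normals' mean of the higher of floor and own signal.

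Cldn2, the gene of the pore-forming claudin of leaky tight junctions, was at 4.92, 4.66, 4.11 and 3.79 in normals and at 7.42, 4.87, 6.65 and 4.75 in mutants. Again only mutants 1 and 3 left the normal range. This probe set was used because its mean over all 8 arrays was the higher of 2, which rested on its mutant values. Kl encodes klotho, a co-receptor of fibroblast growth factor receptors. It was at 5.39, 4.37, 4.06 and 4.65 in normals and at 7.45, 3.77, 7.05 and 4.19 in mutants. Its lowest array was mutant 2, a male of the same age as mutant 3.

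Among secreted proteins, Sostdc1 encodes an antagonist of bone morphogenetic protein and Wnt signals. It was at 5.63, 5.53, 4.46 and 5.02 in normals and at 8.89, 5.65, 7.40 and 5.68 in mutants. The lowest mutant lay 0.02 above the highest normal, so the groups did not overlap but nearly touched. Wfdc2, which encodes a small secreted protein with whey acidic protein domains, was at 4.61, 4.86, 4.79 and 4.44 in normals and at 6.80, 4.90, 5.47 and 5.26 in mutants. Here too the lowest mutant and the highest normal differed by 0.04.

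Otx2, the homeobox gene that specifies this epithelium, went its own way. It was at 6.18, 6.33, 3.92 and 5.56 in normals and at 6.88, 7.05, 6.37 and 6.89 in mutants. Mutants 2 and 4 were highest, and the lowest mutant exceeded the highest normal by 0.03. Normal 3 stood lowest. Beside it, the mean of 12 thalamic and habenular genes was 7.57, 9.24, 6.27 and 9.14 in mutants 1 to 4 and 7.97, 8.57, 7.07 and 6.52 in normals 1 to 4. The part of thalamic tissue in the Otx2 values was not tested.

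Promoter sequence was set beside the genes that stood highest together. RefSeq windows of build GRCm38.p6 were matched for 5 of the 9 genes, with 9 windows in all, and the 250 bases before the gene start were searched. The letters TAATCC, the core bound by Otx proteins, were sought on both strands. They occurred in 6.25% of 32851 windows and in 1 of the 9, before an inner start of Otx2. The letters TATAAA, chosen after the sequences were seen, occurred on either strand in 12.4% of windows and in 2 of the 9. The 2 motifs did not overlap. Shown are the windows of Cldn2, Aqp1 and Kl, genes that exceeded all normals in mutants 1 and 3 alone and have a window, and 30 bases around the Otx2 match. Capitals mark a match, and all are written 5′ to 3′ on the gene's strand. Cldn2 lies on the plus strand at chrX:139800558-139800807, with TATAAA beginning 35 bases before the start. Aqp1 (plus strand, chr6:55336049-55336298) and Kl (plus strand, chr5:150952357-150952606) hold neither motif in this window. The Otx2 site, on the minus strand at chr14:48665303-48665332, begins its match 211 bases before that start.
Cldn2: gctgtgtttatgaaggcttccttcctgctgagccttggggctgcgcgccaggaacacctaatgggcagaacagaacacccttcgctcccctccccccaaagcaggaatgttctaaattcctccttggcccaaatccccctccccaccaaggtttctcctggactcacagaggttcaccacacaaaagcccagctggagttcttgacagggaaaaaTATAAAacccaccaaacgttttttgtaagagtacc
Aqp1: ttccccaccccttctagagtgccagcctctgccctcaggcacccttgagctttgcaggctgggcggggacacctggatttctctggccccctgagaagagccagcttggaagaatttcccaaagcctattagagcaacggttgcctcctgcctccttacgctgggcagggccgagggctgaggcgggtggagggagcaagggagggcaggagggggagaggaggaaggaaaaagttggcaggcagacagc
Kl: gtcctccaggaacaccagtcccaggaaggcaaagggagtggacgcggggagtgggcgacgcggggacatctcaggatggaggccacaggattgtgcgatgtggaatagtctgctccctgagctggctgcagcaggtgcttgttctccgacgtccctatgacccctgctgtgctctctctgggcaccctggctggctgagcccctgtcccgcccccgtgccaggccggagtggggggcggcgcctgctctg
Otx2 site: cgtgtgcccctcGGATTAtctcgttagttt

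How closely a gene followed the others is given by Pearson's r over the 8 arrays with the mean of the other 7, as a description of arrays of which 2 stand apart. It was 0.99 for Cldn2, 0.98 for Sostdc1, 0.95 for Aqp1, 0.94 for Folr1, 0.91 for Wfdc2, 0.86 for Kl, 0.75 for Ttr and 0.43 for Otx2. Mutant 1 exceeded mutant 3 for all 8 genes. The excess was 1.70 for Folr1, 1.48 for Sostdc1 and 1.33 for Wfdc2, and 0.86 for Aqp1, 0.77 for Cldn2, 0.52 for Otx2 and 0.40 for Kl. On the 3 Ttr probe sets, near the upper end of the scale, it was 0.20, 0.14 and 0.48.

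**Figure D2:**
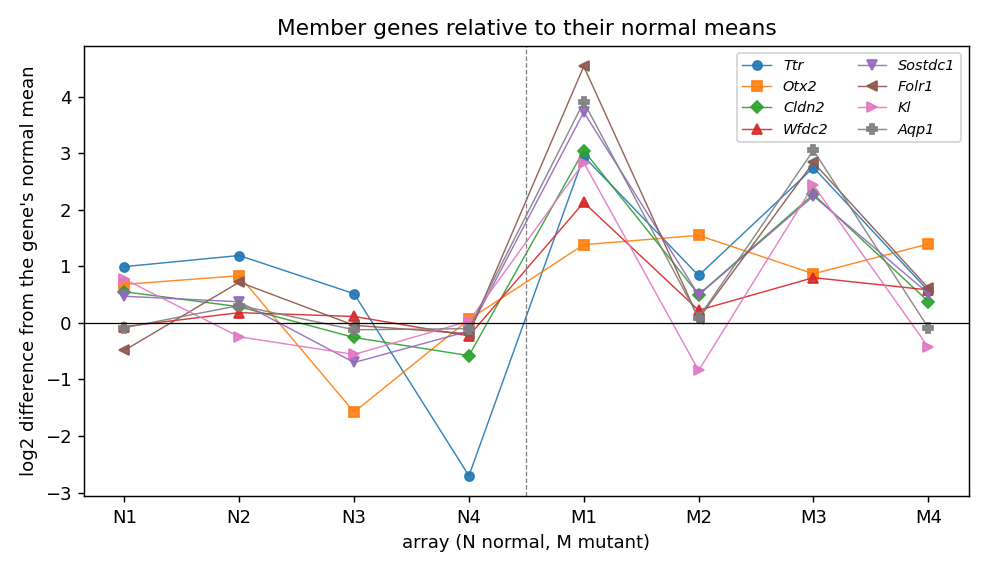
Log2 difference of each gene from its own normal mean (y axis) in each array (x axis, N normal, M mutant); the lines only join the points of 1 gene. The points gather in N1 to N4, M2 and M4 and spread upward in M1 (1.38 to 4.54) and M3 (0.80 to 3.05), with Ttr in N4 and Otx2 in N3 lowest.

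With mutants compared as a group against normals, all 8 genes had higher mutant means, and 0 of 8 passed an adjusted p of 0.05 in limma. Over all 12393 genes 0.105% passed. At an unadjusted p under 0.05, 4 of the 8 were higher in mutants (Otx2, Cldn2, Wfdc2 and Sostdc1), against 4.05% of all genes. That count was 1 without normal 3, without normal 4 or without mutant 1, 2 without mutant 3, and 1 with array weights. The share of all genes is given for the main fit only, so a fall over all genes cannot be told apart. For 3 of the 8 (Otx2, Wfdc2 and Sostdc1) each mutant exceeded each normal, against 2.27% of all genes. On the second Sostdc1 probe set the groups overlapped. The median change of the 8 genes was 1.65, and the median over all genes was 0.01. With Aqp1 at its bound the median was 1.42.

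The Folr1 mean was 5.01 ± 0.51 in normals and 7.03 ± 2.06 in mutants (SD, n = 4 each). The groups overlapped, with a log2 change of 2.02 ± 0.89 (SE, limma adjusted p = 0.770). Its mutant SD was about as large as the difference between the groups. Ttr differed by 1.77 ± 0.93 (SE), from 10.92 ± 1.82 to 12.70 ± 1.24 (SD, n = 4 each, limma adjusted p = 0.832). Sostdc1 differed by 1.75 ± 0.69, Cldn2 by 1.55 ± 0.60 and Kl by 1.00 ± 0.83 (SE). Otx2 had the smallest p, at 1.30 ± 0.49 (SE), from 5.50 ± 1.10 to 6.80 ± 0.30 (SD, n = 4 each, limma adjusted p = 0.687). Wfdc2 differed by 0.93 ± 0.37 (SE, limma adjusted p = 0.710). For the 6 genes other than Ttr and Otx2 the mutants varied more than the normals, with SDs of 0.83 to 2.06 against 0.19 to 0.57. Aqp1, among them, was below the floor in all normals and in mutants 2 and 4, so its SDs are not measured spreads.

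Single animals carried much of these values. Without mutant 1 the median change was 1.07, with Folr1 at 1.18, Aqp1 at 1.02, Sostdc1 at 1.09, Wfdc2 at 0.54 and Kl at 0.39. Kl was at 0.52 without mutant 3 and at 1.61 without mutant 2. Ttr was at 0.87 without normal 4, and Otx2 at 0.77 without normal 3.

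Without mutants 1 and 3 the median change was 0.42, and 0 of 8 genes passed in limma, also at an unadjusted p under 0.05. Aqp1 was then at 0.0033 ± 0.18 (SE), below the floor in all 6 arrays. Kl was lower in mutants by -0.63 ± 0.37 (SE), and the remaining changes were Ttr 0.70, Sostdc1 0.51, Cldn2 0.44, Wfdc2 0.40 and Folr1 0.35. Otx2 was as far apart as before, at 1.47 ± 0.65 (SE, limma adjusted p = 0.696). Mutants 1 and 3 were left out because these same genes were highest in them, so smaller changes follow from that choice. With 2 mutants left, the values also have little precision.

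Animals of the same genotype, sex and age also differed. Mutants 2 and 3 were both males of 25.6 weeks. Mutant 3 exceeded mutant 2 by 3.27 for Kl (9.68-fold) and by 2.76 for Folr1. For Aqp1, below the floor in mutant 2, the difference was at least 2.77. It also exceeded it by 1.91 for Ttr, 1.77 for Cldn2, 1.75 for Sostdc1 and 0.58 for Wfdc2, and lay below it for Otx2 (-0.68). Normal 2 was also a male of 25.6 weeks. Against it mutant 2 lay higher by 0.21 for Cldn2, 0.12 for Sostdc1 and 0.04 for Wfdc2, and lower for Ttr (-0.35), Folr1 (-0.64) and Kl (-0.60). Otx2 again differed from these, at 0.71 above normal 2. At 38.3 weeks, the female mutant 1 exceeded the female normal 1 by 5.02 for Folr1, 3.26 for Sostdc1 and 2.498 for Cldn2. The excess was 2.20 for Wfdc2, 2.06 for Kl, 1.95 for Ttr and 0.70 for Otx2, and Aqp1 was below the floor in normal 1. Normal 1 was the array of differing RNA quality and the lowest of all for Folr1. The interaction of genotype and sex did not pass for any of the 8 genes in limma (adjusted p from 0.556 to 0.946), with 2 animals per sex and group.

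At an equal level of other plexus genes the fitted difference between genotypes was -0.05 to 0.20 for 6 of the 8 genes. It was negative for Kl and changed little for Otx2. With SEs of 0.22 to 0.88 over the 8 genes, these values have little precision. For this fit the mean of 44 further plexus genes in each array was entered as a covariate. The median change of the 8 genes was then 0.17, and 0 passed in limma, also at an unadjusted p under 0.05. Ttr was at 0.16 ± 0.88, Sostdc1 at 0.17 ± 0.30, Cldn2 at 0.17 ± 0.22, Folr1 at 0.19 ± 0.64, Wfdc2 at 0.20 ± 0.28 and Aqp1 at -0.05 ± 0.58 (SE). Kl was at -0.80 ± 0.50 and Otx2 at 1.12 ± 0.66 (SE). The covariate was itself highest in mutants 1 and 3, so a difference due to genotype could be absorbed by it.

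**Figure D3:**
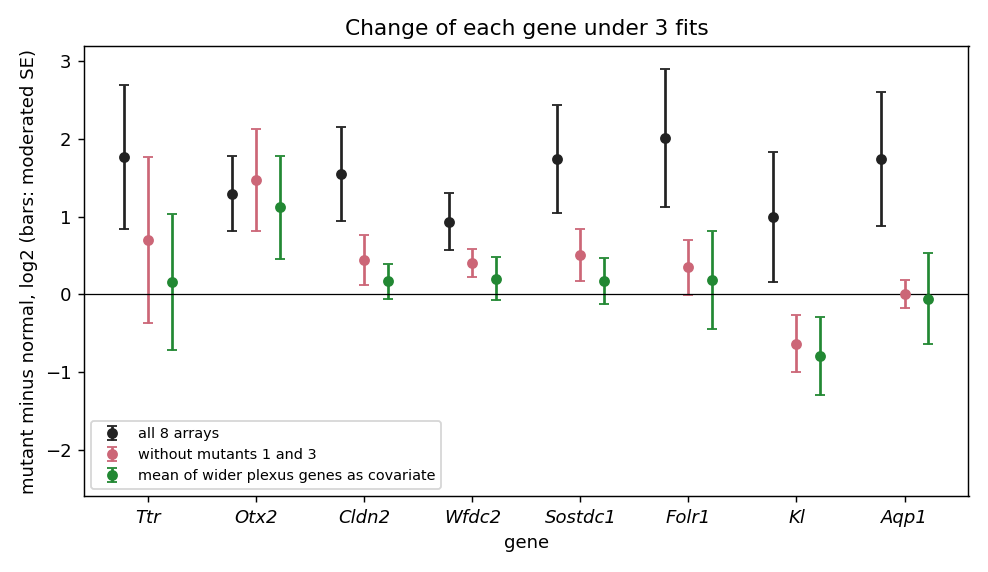
Mutant minus normal log2 change of each gene (y axis, points with moderated SE as bars) with all 8 arrays, without mutants 1 and 3, and with the mean of the wider plexus genes as a covariate. The changes lie between 0.93 and 2.02 with all arrays and shrink toward 0 or below in the other fits, Otx2 excepted.

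Other probe sets of the same genes gave 2 kinds of result. The 2 further Ttr probe sets differed by 2.12 and 1.99, with mutants 1 and 3 at 13.70 and 13.56 on 1 of them, against 7.78 to 11.30 in normals. All 3 Ttr probe sets have names that mark several transcripts or possible cross-hybridisation. The second Sostdc1 probe set differed by 2.06, with mutant 1 at 9.07 and mutant 3 at 6.32 against 3.63 to 5.52 in normals. Its groups overlapped, as mutant 4 was at 5.49, so the separation on the set used was not seen on it. The second Cldn2 probe set stayed between 4.58 and 4.90 in all 8 arrays and differed by 0.05. In normals it was the brighter set (mean 4.75 against 4.37), so the set used was picked through its mutant values. With the mean of both sets Cldn2 differed by 0.80, against 1.55. The second Kl probe set stayed between 2.97 and 3.36, not above the floor in any array. Of the 13 probe sets, 0 passed in a limma fit over all 20380, of which 0.0883% passed. At an unadjusted p under 0.05, 5 were higher in mutants, against 3.14% of all probe sets.

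Further genes of the plexus epithelium were also highest on average in mutants 1 and 3, at 6.81 and 6.28 against 5.27 to 5.85 in the other 6 arrays. Of 54 listed genes 44 were measured, and 40 of them had higher mutant means, against 52.5% of all genes. None passed in limma, 15 were higher at an unadjusted p under 0.05 (4.05% of all genes) and 9 had groups that did not overlap (2.27%). The 15 became 7 without normal 4 and 9 without mutant 1. The share of all genes is not given for these fits, so a fall over all genes cannot be told apart. Their median change was 0.55. Mutants 1 and 3 were the 2 highest arrays for 22 of the 44 (50%, against 2.71% of all genes). Without mutants 1 and 3, 32 of the 44 had higher mutant means (72.7%, against 55.8% of all genes) and the median was 0.215.

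In ion and solute transport, 8 of 11 genes had higher means (median 0.48). Slc4a5, a sodium bicarbonate cotransporter gene of the fluid-facing membrane, was at 6.07 and 5.67 in mutants 1 and 3 and below the floor in the other 6 arrays. The normals were at 2.39 to 3.07. Slc39a4, a zinc transporter gene, was at 5.45, 4.39, 4.18 and 4.93 in mutants and at 3.60 to 3.97 in normals. Slc22a8, an organic anion transporter gene, was at 5.90, 6.06, 6.76 and 6.24 against 5.15 to 5.96. The 3 genes with lower mutant means, named after their values were seen, were the carbonic anhydrase genes Car12 (-0.78) and Car14 (-0.013) and the cotransporter gene Slc12a2 (-0.25). Car12 and Slc12a2 were highest in normal 1, at 8.10 and 10.92.

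In barrier and epithelial genes, 10 of 10 had higher means (median 0.55). The tight junction gene Tjp3 was at 5.13, 4.39, 4.63 and 4.17 in mutants and at 3.73 to 4.04 in normals. Perp, a desmosome gene, was at 7.08, 6.20, 6.36 and 5.81 against 5.25 to 6.09. Cdh1, the gene of E-cadherin, exceeded the floor in mutants 1 and 3 alone, at 3.65 and 3.78. In secreted and matrix genes, 10 of 10 had higher means (median 1.04). The collagen gene Col8a1 was at 5.67, 4.90, 5.41 and 5.02 in mutants and at 4.43 to 4.88 in normals. Col9a3, of another collagen, was at 7.95, 7.29, 7.95 and 7.35 against 5.89 to 7.13. Lbp, the gene of a lipopolysaccharide-binding protein, was at 8.65, 7.20, 7.61 and 7.67 in mutants and at 5.59 to 7.07 in normals.

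Receptor, signalling and transcription factor genes had higher means for 9 of 9 (median 0.44). Msx1, a homeobox gene, was at 5.95, 5.29, 5.67 and 5.33 in mutants, and the normals spanned 4.67 to 5.31. Calml4, a calmodulin-like gene, was at 7.95, 6.66, 6.70 and 6.35, and the normals spanned 4.32 to 7.005.

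Markers of other tissues followed the plexus genes in part. The mean of 18 meningeal and fibroblast genes was 6.31, 5.87, 6.64 and 6.04 in mutants 1 to 4, with normals at 5.11 to 5.83. Mutants 1 and 3 were the 2 highest arrays for 10 of the 18 (55.6%), against 50% of the wider plexus genes and 2.71% of all genes. Of the 18, 17 had higher mutant means (52.5% of all genes), 11 of them at an unadjusted limma p under 0.05 (4.05%). Groups did not overlap for 5 (2.27%), and 0 passed the adjusted threshold. The ependymal mean (8 genes) was 6.34 in mutant 1 but 5.26 in mutant 3, within the normal range of 5.19 to 5.92. Foxj1, a regulator of motile cilia, followed that order, at 5.62 and 4.56 in mutants 1 and 3. The endothelial mean (14 genes) was 6.56, 6.66, 6.66 and 6.73 in mutants 1 to 4 and 5.92 to 6.55 in normals. All 14 endothelial genes had higher mutant means (52.5% of all genes). In limma 3 were higher at an unadjusted p under 0.05 (4.05% of all genes) and 0 passed the adjusted threshold (0.105%). The part of these tissues in the plexus values was not tested.

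Regional markers differed between mutants 1 and 3. The hypothalamic mean (7 genes) was 8.72 in mutant 1 and 5.09 in mutant 3, with Hcrt, the orexin gene, at 9.58 and 4.51. The CA1 mean (3 genes) was 6.84 and 9.61. The dentate gyrus mean (7 genes) was 5.80 and 6.69, against 5.22 to 5.60 elsewhere. Mutants 1 and 3 were the 2 highest arrays for 2 of the 7 genes (28.6%, against 2.71% of all genes). Of genes named after their values were seen, Dsp, a desmosome gene, was at 6.92 and 7.93 against 3.25 to 5.86 in normals. Calb1, the calbindin gene, was at 10.58 and 10.35, below every normal (lowest 10.65), and Prox1 was below the floor in mutant 1. The CA3 mean (5 genes) was 7.59 and 7.91, against 7.10 to 7.50 elsewhere. Mutants 1 and 3 were the 2 highest arrays for 1 of the 5 genes (20%, against 2.71%). The striatal mean (7 genes) was 10.31, 10.38 and 9.25 in normals 1, 3 and 4, and 6.66 to 7.69 in the other 5 arrays. The phagocyte mean (15 genes), in contrast, was 8.33, 8.27, 7.93 and 8.27 in mutants 1 to 4 and 5.76 to 6.42 in normals. Each of those 15 genes had groups that did not overlap (2.27% of all genes), and 10 passed in limma (0.105%). The list was, however, drawn up from results of these arrays. Whether genotype, tissue content or both set the plexus values was not tested beyond the fits given.

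**Figure D4:**
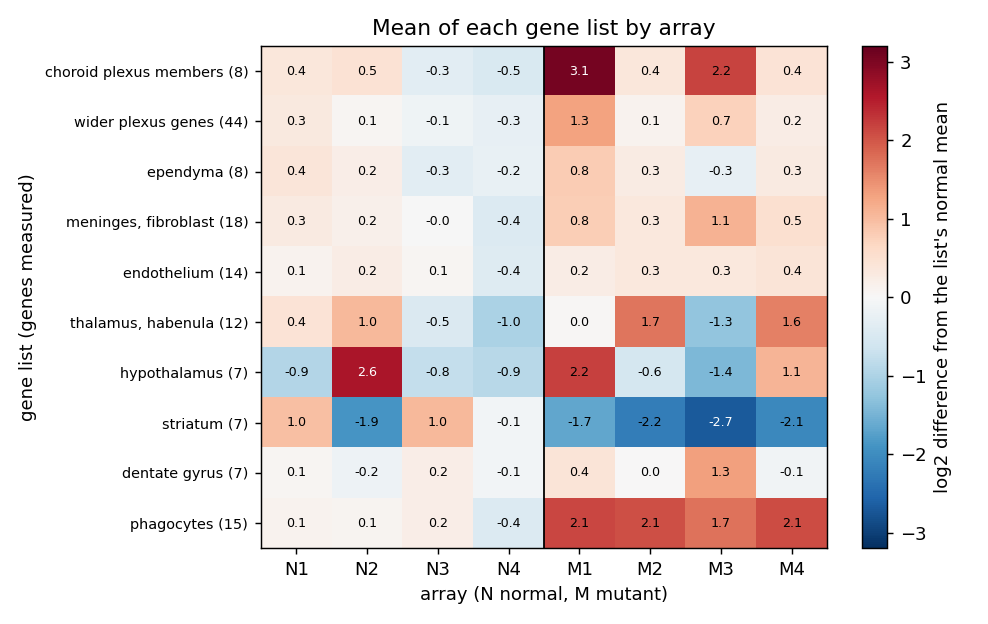
Mean of each gene list in each array (columns) as log2 difference from that list's normal mean (colour and printed value), with the number of genes measured in parentheses. Plexus, meningeal and dentate lists (the last with the desmosome gene Dsp) are highest in M1 and M3, and phagocyte genes are high in all 4 mutants.

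Outside the plexus lists, 12 genes with a mean level above 5 were named for the profile over the 8 arrays most like the members' mean, by Pearson's r. That level was taken over all 8 arrays. Sema3b, Cox8b and Anxa1, with normal means of 4.55, 4.94 and 4.96, thus passed it only through their mutant values. The genes were picked for this likeness, so it describes them and tests nothing. The 12 were Sema3b (0.98), Pdpn (0.98), Slc12a7 (0.97), Cox8b (0.96), Lum (0.96), Abca4 (0.95), Ddah2 (0.94), Rcn3 (0.93), Anxa1 (0.93), Ptger4 (0.93), Serping1 (0.93) and Gpx8 (0.92). Sema3b, a secreted semaphorin gene, was at 6.52 and 5.63 in mutants 1 and 3, and at 4.30 to 5.05 in the other 6 arrays. Cox8b, a cytochrome oxidase subunit gene, was at 8.80 and 7.37 against 4.11 to 6.02. Pdpn, the podoplanin gene, was at 9.05 and 8.47 against 7.47 to 8.02. Lum and Serping1 are also in the meningeal and fibroblast list, and 0 of the 12 passed in limma.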

How the data were processed

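Hippocampal RNA of 8 mice was measured on 1 array each. The deposited values are log2 expression per probe set, made by the authors with RMA and GCOS 1.4 per the submitters' processing notes, with the genome build not given in the sources used here. Of 22690 probe sets, 64 were controls and 20380 listed 1 gene symbol, updated through the gene number (20351 matched). A gene was read from its probe set with the highest mean, giving 12393 genes. Arrays give no counts, so 4 animals per group limit the precision. Each array is a separate animal per the labels.

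The genotype difference was fitted without covariates by lmFit and eBayes of limma 3.58.1 (R 4.3.3), adjusted by Benjamini-Hochberg over all genes at 0.05. The steps were tested on simulated data. The members, the lists and the alternatives were chosen with earlier results of these data known. Named were all members, the 3 genes of smallest p in each further plexus list, up to 2 of other lists, and the 12 most similar profiles. Alternatives were other probe set choices, a filter on the dimmest 40% of genes, normalizations, variance models, array weights, sex, age, the replicate number as a block, the wider plexus mean as a covariate, and leaving out animals. After the data were examined, leaving out only probe sets named for cross-hybridisation was added. Figures used matplotlib 3.10.9. Probe sets with several symbols (691) or none (1555) were not used.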

Additional observations from a re-analysis of the deposited data

Results flagged for a closer look

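In Aqp1, normal 2 (3.45) stood apart from the other normals (3.02 to 3.06), with a gap of 0.915 of the group's range. All 4 values lay below the floor of their arrays, where values have no order. Of 26 groups of 4 examined, 1 was picked out in this way, and chance picks about 5% of groups.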

How the results depend on the processing

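In each of 24 alternatives 0 members passed in limma. The members' median change moved from 1.65 by more than the spread between animals in 2 of them, to 0.421 without mutants 1 and 3 and to 0.169 with the mean of the wider plexus genes as a covariate. The Kl change was below 0 in both (-0.635 and -0.797), and that of Aqp1 in the latter (-0.054). All other changes of the 8 genes kept their direction where they were fitted, and the median was 0.982 with array weights. The count of wider plexus genes that passed went from 0 to 1 (Lgals3bp) with the mean of all probe sets and with array weights. Leaving out 1 animal gave 0 to 1, the latter without normal 2.

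Leaving out the dimmest 40% of genes, by the mean over all 8 arrays, kept 4 members. Folr1, with a normal mean of 5.01, passed this filter only through its mutant values. Leaving out all probe sets with suffixes _s, _x and _a kept 6, without Ttr and Otx2. The replicate number as a block gave 0 members past the threshold, with 5 at an unadjusted p under 0.05. The share of all genes at that unadjusted threshold is not given for this fit. The replicate numbers are names: deviations of same-numbered animals correlated at -0.236, 0.0631, 0.395 and -0.155, so they do not pair the animals. Over all genes 12 were called higher and 1 lower. The counts were 18 and 3 with the mean of all probe sets and 32 and 4 with array weights. They were 2 and 0 with the block or the plexus covariate, 18 and 22 without normal 2, and 5 and 0 without mutant 4. Signal below the floor limits Aqp1.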

Other observations

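A few of the wider plexus genes were high in all 4 mutants and not only in mutants 1 and 3. Rdh5, a retinol dehydrogenase gene, was at 8.88, 6.97, 7.47 and 7.49 in mutants 1 to 4 and at 5.89, 6.30, 5.34 and 5.003 in normals, a log2 change of 2.07 ± 0.43 (SE, limma adjusted p = 0.226). Lgals3bp, the gene of a secreted galectin-binding glycoprotein, was at 6.98, 6.61, 6.54 and 6.79 in mutants and at 5.58, 5.95, 5.34 and 5.53 in normals (1.13 ± 0.16 SE, limma adjusted p = 0.059). In both genes the lowest mutant exceeded the highest normal, as for 9 of the 44 wider plexus genes and 2.27% of all genes. Among mutants Lgals3bp was lowest in mutant 3, as was the phagocyte mean (8.33, 8.27, 7.93 and 8.27 in mutants 1 to 4). Which cells gave the Lgals3bp signal was not tested. Of the 4 vitamin A genes 3 had higher mutant means (median 0.15), but Rbp4 and Crabp2 had overlapping groups. Rbp4, the plasma retinol-binding protein gene, was at 6.51, 5.33, 7.11 and 5.61 in mutants and at 7.96, 5.92, 8.14 and 7.12 in normals (-1.15 ± 0.55 SE). Crabp2, a retinoic acid-binding protein gene, was at 4.81, 4.43, 5.32 and 4.63 against 3.78 to 5.32.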
